A study of Mus musculus with 472 samples.

Results

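The neuronal nicotinic acetylcholine receptor subunits were described in single mouse retinal ganglion cells, the output neurons of the eye. The members were chosen by gene symbol as the 9 genes Chrna2, Chrna3, Chrna4, Chrna5, Chrna6, Chrna7, Chrnb2, Chrnb3 and Chrnb4, of 55450 genes in the deposited table, and all 9 were found there. The cells came from retinas of C57BL/6J mice aged 7 to 9 weeks, without any treatment. A pipette sealed to the cell in a flat-mounted retina recorded its light responses and then took up its content, from which cDNA was made with Smart-seq2, a method that reads whole transcripts and uses no molecular identifiers. The labels name neither animals nor subgroups, so all cells together are 1 sample of 1 group, and no test between cells was possible. Neither recordings nor morphology entered the values here.

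Nicotinic receptors are cation channels opened by acetylcholine, each built from subunits arranged around a central pore. In most neuronal receptors alpha subunits carry the main face of the transmitter site and beta subunits the complementary one, while the alpha5 and beta3 proteins join as accessory subunits and alpha7 can form channels on its own. In the adult retina acetylcholine is made by starburst amacrine cells, which contact ganglion cells in the inner plexiform layer. Earlier in development, nicotinic transmission drives the retinal waves that help shape visual projections. Receptors with alpha6 and beta3 are known from ganglion cell axons and from midbrain dopamine neurons.

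Levels are given as CPM, the counts of a gene per 1000000 gene counts of the cell without spike-ins. A cell is called positive for a gene that reaches 10 CPM. The median cell had 5184792.5 gene counts and the range was 58907 to 13004880, so that 10 CPM stood for about 51.8 counts in the median cell but 0.589 counts in the shallowest. Library names gave 5 groups of cells, called sequencing runs and labelled A to E here. Cells were grouped by flow cell and lane where the name held them, and otherwise by the start of an order number. The labels do not state runs, so a group made by order number may pool several. Runs B to E held 98, 62, 59 and 19 cells, with the remaining 49.6% in run A. Run D stood apart, with a median of 3024 positive genes per cell against 5554.5 over all cells. Of all cells, 95.6% were positive for 6 or more of 10 ganglion cell markers. Markers of neighbouring cells were found too, with at least 3 positive in 25.2% of cells for 7 amacrine genes, in 29.03% for 7 bipolar genes and in 59.7% for 6 rod genes. Shares carry exact (Clopper-Pearson) 95% intervals, which cover counting error only and not differences between animals.

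Ganglion cells carried a short core of nicotinic subunits: Chrna6, Chrnb3 and Chrnb2 were positive in most cells, Chrna4 and Chrna3 in minorities, Chrna7 and Chrnb4 in few, and Chrna2 and Chrna5 in almost none. The 3 core genes were the members positive in 50% or more of the cells, a mark reached by 7.76% of all 55450 genes. Both members of the leading pair lie on chromosome 8, where Chrnb3 (27368711 to 27399730, plus strand) and Chrna6 (27403212 to 27413944, minus strand) face each other tail to tail with 3482 bp between them. All positions refer to the mm10 build.

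Chrna6 encodes alpha6, an alpha subunit of restricted range in the nervous system. Chrna6 was positive in 90.04% of cells (95% interval 86.98% to 92.6%), with a lowest value of 0, a median of 363.2 and a highest of 3089 CPM. It was listed at 0 in 9 cells, and 47 cells reached 1000 CPM. Its share was 69.5% in run D and between 85.5% (C) and 95.7% (A) in the other runs, and its median was 135.2 CPM in D against 394.6 CPM in A. Run D was therefore the low one, and its interval of 56.1% to 80.8% did not reach that of A (92.3% to 97.9%).

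Chrnb3 encodes beta3, an accessory subunit found with alpha6. It was positive in 88.1% of cells (84.9% to 90.9%), with values from 0 through a median of 246.1 to 3048 CPM. Its share was 62.7% in run D and between 84.2% (E) and 94.4% (A) in the other runs. The order of the runs was not the same as for Chrna6, but D was lowest for both genes.

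Chrnb2 (chromosome 3, 89746195 to 89764632, minus strand) encodes beta2, the common partner of alpha4 and alpha6. Of all cells 75% were positive for it (70.8% to 78.8%), with values from 0 through a median of 118.7 to 1639 CPM, and its run shares went as low as 50.8% in D and as high as 81.6% in A. Its counts need care, because the annotation puts 1365 of its exon bases (16.3%) under exons of Adar, a neighbouring gene on the other strand that encodes an RNA-editing enzyme. In 45.97% of cells the deposited Chrnb2 value was not a whole number. In all of these cells the Adar value was not whole either, and the 2 values added to a whole number within 0.01. Chrnb2 was positive in 81.9% of Adar-positive cells and in 45.6% of the 90 Adar-negative cells. These sets of cells were not matched for the number of positive genes. Among cells whose Chrnb2 value was whole, 61.96% were positive for it (a setting and a gene chosen after the values were seen). Every cell at 0 is whole, so a lower share was favoured there by construction. It is not a share corrected for Adar. The values of the other 8 members were whole in every cell.

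Chrna4 (chromosome 2, 181018380 to 181043546, minus strand) encodes alpha4, which pairs with beta2 in the most abundant nicotinic receptor of the brain. Cells positive for it made up 40.5% (36.004% to 45.05%), with values from 0 through a median of 0.467 to 1509 CPM. Its positive cells had a median of 87.5 CPM and quartiles of 39.5 and 195.5 CPM. The run shares ran from 30.5% in D to 47.4% in E.

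Chrna3 (chromosome 9, 55010111 to 55026562, minus strand) encodes alpha3, the ganglionic alpha subunit of the autonomic nervous system. It was positive in 28.8% of cells (24.8% to 33.1%) and listed at 0 in 50.8%, with a median of 0 and a highest value of 3136 CPM. Among positive cells the median was 139.1 CPM, above that of Chrna4-positive cells in CPM, and 16 cells lay between 1 and 10 CPM. Thus most cells had either a clear Chrna3 level or next to none. Run shares went from 15.3% in D to 40.3% in C.

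Chrna7 (chromosome 7, 63098692 to 63212569, minus strand) encodes alpha7, which forms homomeric channels with high calcium permeability. The gene was positive in 66 cells (13.98%, 10.98% to 17.4%), with values from 0 to 611 CPM and a median of 0. Its positive cells had a median of 31.5 CPM, and 7 cells passed 100 CPM, so it was both rare and low.

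Chrnb4 encodes beta4, the usual partner of alpha3 in ganglionic receptors, and Chrna5 encodes the accessory subunit alpha5. Both neighbour Chrna3 on chromosome 9, with Chrna5 (54980880 to 55007779, plus strand) 2332 bp and Chrnb4 (55028154 to 55048779, minus strand) 1592 bp away. Chrnb4 was positive in 25 cells (5.30%, 3.46% to 7.72%), with values from 0 through a median of 0 to 326.02 CPM. Chrna5 was positive in 1 cell (0.212%, 0.00536% to 1.17%), at 20.4 CPM in run E, and was listed at 0 in 99.4% of cells. Of the 3 neighbouring genes only Chrna3 was thus found in more than a few cells.

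Chrna2 (chromosome 14, 66135039 to 66152948, plus strand) encodes alpha2, known from restricted sets of interneurons. Only 7 cells were positive for it (1.48%, 0.598% to 3.03%), with a highest value of 324.4 CPM. Of these 7 cells, 6 had 3 or more amacrine markers, which is 5.04% of the cells with such markers, against 0.283% (1 cell) of the others, and all 7 carried 6 or more ganglion cell markers. The part of amacrine RNA in these values was not tested.

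**Figure D1:**
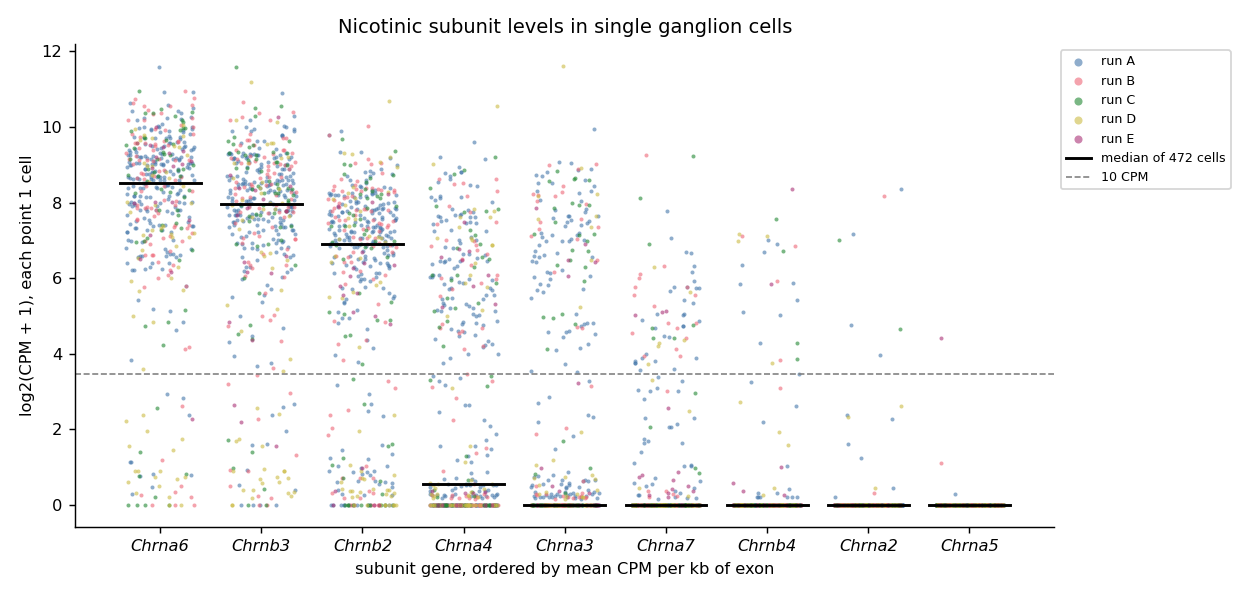
Levels of the 9 subunits on the log2(CPM + 1) scale (vertical axis), each point 1 cell, coloured by sequencing run, with black bars at the medians of all cells and a dashed line at 10 CPM. Chrna6, Chrnb3 and Chrnb2 have medians of 363.2, 246.1 and 118.7 CPM, while the medians of Chrna3, Chrna7, Chrnb4, Chrna2 and Chrna5 are at 0.

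To set the genes beside each other, mean CPM was divided by the length of the annotated exons in kilobases (kb). On this scale the mean level was 154.7 CPM per kb for Chrna6, 52.2 for Chrnb3, 18.3 for Chrnb2, 11.7 for Chrna4, 11.1 for Chrna3, 1.99 for Chrna7, 1.23 for Chrnb4, 0.543 for Chrna2 and 0.0147 for Chrna5. The SD of the 5 run means was 35.9 for Chrna6, 13.8 for Chrnb3, 4.54 for Chrnb2, 2.52 for Chrna4 and 3.76 for Chrna3 (CPM per kb). The lowest run mean of Chrna6 (85.1) lay above the highest of Chrnb3 (67.1), and the lowest of Chrnb3 (34.4) above the highest of Chrnb2 (21.2). Chrnb2 overlapped Chrna4 and Chrna3 in range over runs, but was above each of them within 5 of 5 runs. Chrna4 was above Chrna3 in 2 of 5 runs and Chrna7 above Chrnb4 in 3 of 5, so these pairs had no fixed order.

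Chrna6 made up 61.4% of the summed level per kb of the 9 genes, Chrnb3 20.7%, Chrnb2 7.26%, Chrna4 4.65% and Chrna3 4.41%. Dividing by the length of the longest coding sequence instead gave 43.8% for Chrna6 and 34.5% for Chrnb3, and put Chrna3 (38.6 CPM per coding kb) before Chrna4 (30.6). Within single cells, Chrna6 was the highest subunit per kb in 79.2% of the cells with a positive subunit, and Chrnb3 in 11.2%. Per coding kb these shares were 55.1% and 33.5%. The lead of Chrna6 over Chrnb3 depended on the length used, since per coding kb Chrna6 was above Chrnb3 in 4 of 5 runs, and run D had 166.8 for Chrna6 and 169.5 for Chrnb3 (CPM per coding kb).

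**Figure D2:**
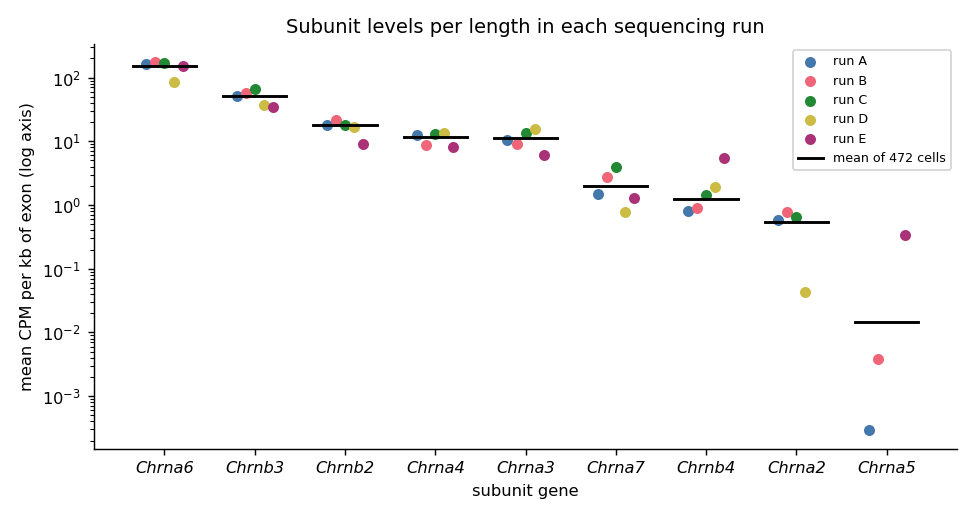
Mean CPM per kb of exon for each subunit (log axis), with 1 point for each sequencing run and a black bar at the mean of all cells; runs with a mean of 0 (Chrna2 in E, Chrna5 in C and D) are not drawn. The runs of Chrna6 lie between 85.1 and 173.3, above all runs of Chrnb3, while those of Chrna4 and Chrna3 overlap.

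A cell was positive for a median of 4 of the 9 subunits (quartiles 3 and 4), and the highest number was 6, in 16 cells. At least 1 alpha and 1 beta gene were positive in 90.5% of cells (87.5% to 92.96%). The 9 genes formed 55 combinations, of which 4 held 55.5% of the cells. These were Chrna6, Chrnb3 and Chrnb2 with Chrna4 in 87 cells, the same 3 genes alone in 86, the 3 with Chrna3 in 50, and Chrna6 with Chrnb3 alone in 39. The common combinations thus shared Chrna6 and Chrnb3 and differed in Chrnb2 and in the alpha subunit beside them.

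Chrna6 and Chrnb3 were both positive in 84.1% of cells (80.5% to 87.3%), 1.05 times the number expected if the genes were independent within each run. Among cells with 3000 or more positive genes this ratio was 1.01. With shares this high the ratio cannot rise far above 1. Chrna6 was positive in 95.4% of Chrnb3-positive cells and in 50% of Chrnb3-negative ones. Among cells with 3000 or more positive genes these shares were 96.3% and 75%. In cells positive for both, Chrna6 was 3.23 times Chrnb3 per kb in the median cell, with quartiles of 1.74 and 5.57, and 1.39 times per coding kb. The run medians of the ratio per kb ran from 2.31 in D to 5.44 in E. Over the 460 cells with 1000 or more positive genes, Spearman's rho of the log2 levels was 0.41, and 0.26 within run A. The cells share sequencing runs and differ in depth and gene number, so the values are descriptions.

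**Figure D3:**
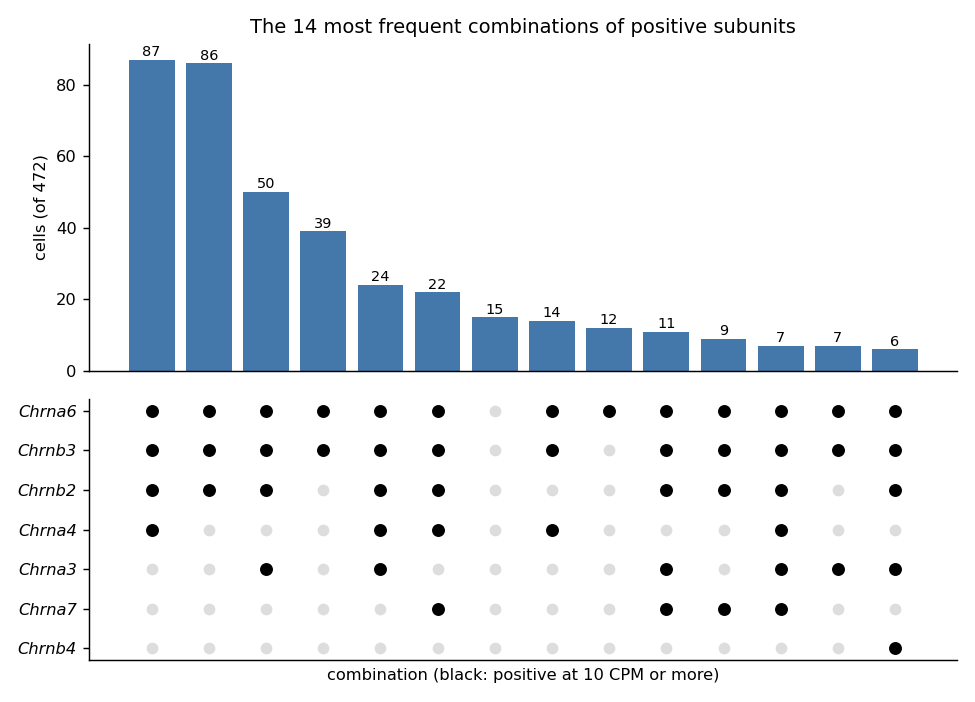
Number of cells (vertical axis) with each of the 14 most frequent combinations of positive subunits; black dots below each bar mark the genes at 10 CPM or more, and Chrna2 and Chrna5 occur in none of the 14. The 4 leading combinations of 87, 86, 50 and 39 cells all hold Chrna6 and Chrnb3, and 15 cells were positive for no subunit.

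The 15 cells without a positive subunit had a median of 1137 positive genes, against 5554.5 over all cells, and 10 of them came from run D. Their median spike-in share was 3.82%, against 0.738% over all cells, and 5 of the 15 carried 6 or more ganglion cell markers. Fewer subunit transcripts in a cell and a lower RNA yield from it cannot be told apart here. Over 4 groups of equal size, ordered by the number of positive genes per cell, the share positive for Chrna6 was 72.03%, 92.4%, 96.6% and 99.2%, and that for Chrna4 was 16.9%, 37.3%, 45.8% and 61.9%. Chrna3 reached 16.1%, 29.7%, 30.5% and 38.98%, and Chrna7 4.24%, 14.4%, 16.9% and 20.3%. Chrnb2 reached 38.98%, 80.5%, 88.1% and 92.4%, and Chrnb3 62.7%, 94.9%, 95.8% and 99.2%. The shares of these genes over all cells are thus lower than those in the group with the most detected genes. In the comparisons of cells grouped by marker genes below, the number of subunits that differed is given beside the share of all genes that did.

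**Figure D4:**
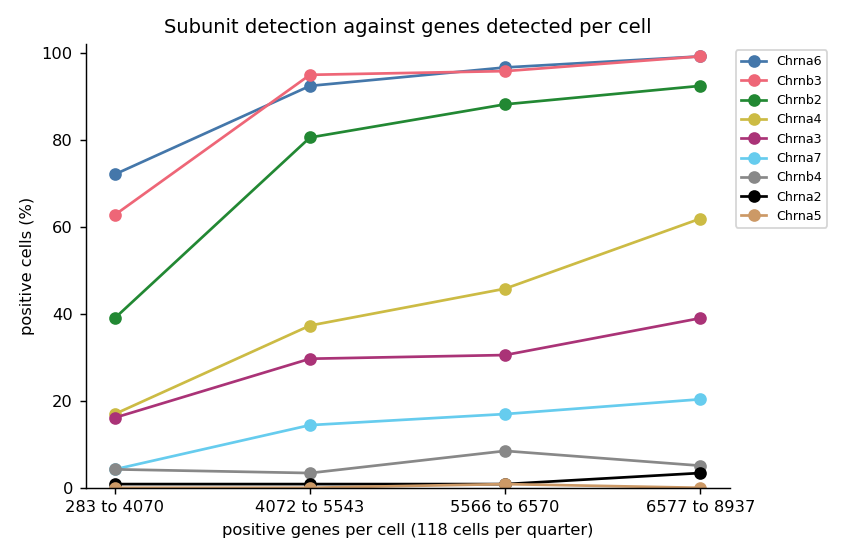
Share of cells positive for each subunit (vertical axis, percent) in 4 groups of equal size ordered by the number of positive genes per cell. Chrna6 goes from 72.03% to 99.2% and Chrna4 from 16.9% to 61.9% over the 4 groups.

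Chrna3 and Chrna4 were found together in fewer cells than their shares imply, and the shortfall lay in run A. Both were positive in 46 cells (9.75%, 7.22% to 12.8%), against 57.01 expected within runs. Chrna3 was positive alone of the pair in 19.1% of cells, Chrna4 alone in 30.7%, and neither in 40.5%. In run A 25 cells held both, against 34.9 expected, while run B had 6 against 6.53, run C 10 against 10.5, run D 2 against 2.75 and run E 3 against 2.37. Spearman's rho of their log2 levels was -0.11 over 460 cells and -0.24 within run A. In the 46 cells with both genes, Chrna3 was higher per kb in 24, so neither gene led there.

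Chrna3 and Chrnb4 were both positive in 14 cells, against 7.19 expected within runs, which was 56% of the 25 Chrnb4-positive cells and 10.3% of the Chrna3-positive ones. Run A gave 9 of the 14, against 3.62 expected, and no cell of run E had both. These counts are small. The pairs described were picked from 36 pairs with their counts in view, and none was tested.

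The sequences around the starts of Chrna3, Chrnb4 and Chrna4 are shown because Chrna3 and Chrna4 were higher in different classes of cells in the comparisons that follow, and Chrnb4 is the neighbour and usual partner of Chrna3. They span 250 bases before to 50 after the start that RefSeq gives on GRCm38.p6, the assembly of mm10, and are written 5′ to 3′ on the minus strand, where all 3 genes lie. The start used is also a GENCODE start for Chrna3, lies 48 bp from the nearest one for Chrna4 and lies farther from it for Chrnb4. Capitals mark GGGCGG on either strand, known as the GC box of Sp factors, and CANNTG, the E-box of basic helix-loop-helix factors.
Chrna3, chr9:55026513-55026812: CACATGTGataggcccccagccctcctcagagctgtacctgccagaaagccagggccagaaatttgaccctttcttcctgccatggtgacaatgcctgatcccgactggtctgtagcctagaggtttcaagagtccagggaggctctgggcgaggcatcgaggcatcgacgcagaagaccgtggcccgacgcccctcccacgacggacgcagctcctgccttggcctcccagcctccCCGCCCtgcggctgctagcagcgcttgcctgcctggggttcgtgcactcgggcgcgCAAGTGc
Chrnb4, chr9:55048495-55048794: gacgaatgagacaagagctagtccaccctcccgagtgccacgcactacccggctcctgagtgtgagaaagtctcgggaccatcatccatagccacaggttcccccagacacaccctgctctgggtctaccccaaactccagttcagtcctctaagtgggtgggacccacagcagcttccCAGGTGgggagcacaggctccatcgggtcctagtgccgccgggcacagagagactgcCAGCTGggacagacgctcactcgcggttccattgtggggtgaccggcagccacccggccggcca
Chrna4, chr2:181039128-181039427: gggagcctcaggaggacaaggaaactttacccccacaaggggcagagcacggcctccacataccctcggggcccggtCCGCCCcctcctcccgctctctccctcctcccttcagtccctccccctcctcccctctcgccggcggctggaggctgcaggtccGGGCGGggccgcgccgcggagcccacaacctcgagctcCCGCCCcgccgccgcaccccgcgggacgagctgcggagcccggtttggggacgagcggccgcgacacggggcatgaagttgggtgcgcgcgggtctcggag
Chrna3 had 1 GGGCGG and 3 CANNTG matches, of which 2 overlap at the 5′ end, Chrnb4 had 0 and 2, and Chrna4 had 3 and 0. GC content was 64.3%, 63% and 74.3% in that order, against a median of 52.7% over 32851 RefSeq promoters. GGGCGG occurred in 35.7% of those promoters and CANNTG in 72.3%. Neither TAATTA, a homeodomain core found in 5.29% of promoters, nor ATTTGCAT, an octamer found in 1.74%, occurred in the 3 windows. RefSeq promoters were matched for 6 of the 9 members, and a match to a motif describes letters, not binding.

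The cells were then grouped by marker genes that are not nicotinic subunits, to describe where the subunits vary. There were 10 such classes, holding 10.6% to 24.4% of the cells, and the cells of each were set beside all other cells. The classes overlap, and in each of them most cells were also in another class, with the Pou4f1 and Pou4f3 classes left aside. The part of this overlap in the differences was not tested. The difference was taken in mean log2(CPM + 1), class cells minus other cells. A subunit was counted as higher or lower at a difference of 1 or more in size. The 6 members positive in 10% or more of cells (Chrna3, Chrna4, Chrna6, Chrna7, Chrnb2 and Chrnb3) were counted, beside 11149 genes past the same filter. The other 3 members did not pass it. In each class both the class cells and the other cells included cells at 0 CPM for Chrna3 and for Chrna4, so the groups overlap in range. Of the 60 differences 12 were higher and 7 lower. Class cells defined by a positive marker also had more positive genes than other cells. The median difference of all genes was above 0 in 9 of the 10 classes. The part of gene number in this was not tested.

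Cells positive for Spp1 and Kcng4, markers of alpha ganglion cells with large somata, were rich in Chrna4 and poor in Chrna3. These made up 22.5% of the cells. Of the class, 76 cells were also in another class, with the Pou4f1 and Pou4f3 classes left aside. Among all cells of the class, 71.7% (62.1% to 80.02%) were positive for Chrna4, against 31.4% (26.7% to 36.4%) of the other cells. Chrna4 had a median of 62.3 and a highest value of 772 CPM in these cells, against a median of 0.191 and a highest value of 1509 CPM in the others. The difference was 2.81 on the log2 scale, against a median of 0.51 over all genes, and 0.206% of genes had a higher one. Chrna3 was positive in 16.98% of the class (10.4% to 25.5%) and in 32.2% of the others (27.5% to 37.3%), a difference of -1.27. Of the 6 counted members 2 were higher (Chrna4 and Chrnb2), where 14.9% of all genes were, and 1 was lower (Chrna3), where 0.404% of genes were. Run A held 77.4% of the class and 41.5% of the other cells, and within run A the differences were 2.62 for Chrna4 and -1.98 for Chrna3. For Chrnb2 the difference of 1.21 fell below the size of 1, to 0.89 within run A and 0.59 among cells of 3000 or more positive genes. Chrna6 and Chrnb3 differed by 0.37 and 0.40, below the median gene.

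Cells positive for Col25a1 and Cdh6, markers of ON-OFF direction-selective ganglion cells, which receive starburst input, were rich in Chrna3. Chrna3 was positive in 76% of the 50 cells (61.8% to 86.9%), against 23.2% (19.3% to 27.6%) of the others. It had a median of 84.1 and a highest value of 528 CPM in the class, against a median of 0 and a highest value of 3136 CPM in the others. The difference was 3.56, and 3.55 within run A, and 0.0538% of genes had a higher one. Chrna4 was positive in 32% of the class and 41.5% of the others, a difference of -0.74 over all runs and -1.52 within run A, which passes the size of 1. Chrna3 was the 1 counted member that was higher, where 10.2% of all genes were, and 0 were lower, where 0.26% were. At least 3 amacrine markers were positive in 34% of the class and 24.2% of the others, and the summed level of these 7 genes ran from 0 to 2612 CPM with a median of 146.1 CPM in the class, and from 0 to 2836 with a median of 64.4 CPM in the others. Their part in the result was not tested. Without the cells that carried 3 or more amacrine or bipolar markers the differences were 4.20 for Chrna3, -1.93 for Chrna4 and 1.23 for Chrnb3 (0.97 over all cells). Among cells of 3000 or more positive genes that of Chrna4 was -1.04.

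Cells positive for Mmp9, which encodes a matrix protease, and Htr1d, a serotonin receptor gene, also held more Chrna3 than the others. Chrna3 was positive in 59.1% of the 110 cells (49.3% to 68.4%), against 19.6% (15.6% to 24.1%) of the others. Its median was 55.9 and its highest value 528 CPM in the class, against a median of 0 and a highest value of 3136 CPM in the others. The differences were 2.95 for Chrna3 and -1.25 for Chrna4, which was positive in 26.4% of the class and 44.8% of the others. Within run A they were 3.22 and -1.83. Chrnb3 was positive in 98.2% of the class, with a median of 378.9 CPM, and in 85.1% of the others, with a median of 217.3 CPM, a difference of 1.54. Within run A this difference was 0.92, under the size of 1. The differences of Chrna6 (1.02) and Chrnb2 (1.12) were also under it within run A, at 0.28 and 0.63, and among cells of 3000 or more positive genes, at 0.48 and 0.65. For Chrna6 it was 0.92 without cells that carried 3 or more amacrine or bipolar markers, and for Chrna4 -0.94 with class markers at 1 CPM. Of the 6 members 4 were higher (Chrna3, Chrna6, Chrnb2 and Chrnb3), where 13.5% of all genes were, and 1 was lower (Chrna4), where 0.188% were.

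The Col25a1 and Mmp9 classes share 21 cells, and Chrna3 was found in each without the other. It was positive in 85.7% of the 21 shared cells (63.7% to 96.95%), in 68.97% of the 29 cells of the Col25a1 and Cdh6 class alone, in 52.8% of the 89 cells of the Mmp9 and Htr1d class alone, and in 15.3% (11.6% to 19.6%) of the cells outside both. For Chrna4 these shares were 28.6%, 34.5%, 25.8% and 45.6%. Of the 90 cells with Chrna3 but no Chrna4, 57.8% carried Mmp9 and Htr1d and 6.67% Spp1 and Kcng4. Of the cells with Chrna4 but no Chrna3, 11.03% carried Mmp9 and Htr1d and 44.1% Spp1 and Kcng4. The cells with 1 gene of the pair thus differed in which of these marker pairs they carried more often.

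Cells positive for Opn4, which encodes the photopigment melanopsin, or for Eomes, a transcription factor of intrinsically photosensitive ganglion cells, were rich in Chrna4. It was positive in 64% of the 75 cells (52.1% to 74.8%), against 36.02% (31.3% to 40.96%) of the others, with a median of 50.1 and a highest value of 514 CPM in the class, against a median of 0.282 and a highest value of 1509 CPM in the others. The difference was 1.97, and also 1.97 within run A, against a median of 0.25 over all genes. Chrna4 was the 1 higher member, where 2.19% of genes were higher, and 0 members were lower, where 0.0359% were. Of the 75 cells, 56 were also in another class, with the Pou4f1 and Pou4f3 classes left aside. The part of this overlap was not tested. At least 3 amacrine markers were positive in 42.7% of the class and 21.9% of the others, and without cells that carried 3 or more amacrine or bipolar markers the Chrna4 difference was 1.73 and that of Chrna3 was -1.14, against -0.49 over all cells.

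Tbr1-positive cells, named for a T-box transcription factor of several ganglion cell types, likewise held more Chrna4 and less Chrna3. Chrna4 was positive in 62.03% of the 79 cells (50.4% to 72.7%) and in 36.1% (31.4% to 41.1%) of the others, and Chrna3 in 13.9% of the class (7.16% to 23.5%) and 31.8% of the others (27.2% to 36.7%). The differences were 2.01 for Chrna4 and -1.31 for Chrna3, and 2.45 and -1.66 within run A. Chrna6 had medians of 519.7 CPM in the class and 313.8 CPM in the others, a difference of 1.17, but 0.57 within run A and 0.65 among cells of 3000 or more positive genes. With class markers at 1 CPM the difference was -0.98 for Chrna3 and 1.11 for Chrnb2, and without cells that carried 3 or more amacrine or bipolar markers it was 1.73 for Chrnb2, against 0.98 over all cells at 10 CPM. Here 2 members were higher (Chrna4 and Chrna6), where 9.1% of genes were, and 1 was lower (Chrna3), where 0.197% were. Of the 10 classes this one had the highest median Chrna6 level. Of the 79 Tbr1-positive cells, 63 were also in another class, with the Pou4f1 and Pou4f3 classes left aside. Many of them carried Spp1 and Kcng4. The part of this overlap in the Chrna4 and Chrna3 differences was not tested.

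**Figure D5:**
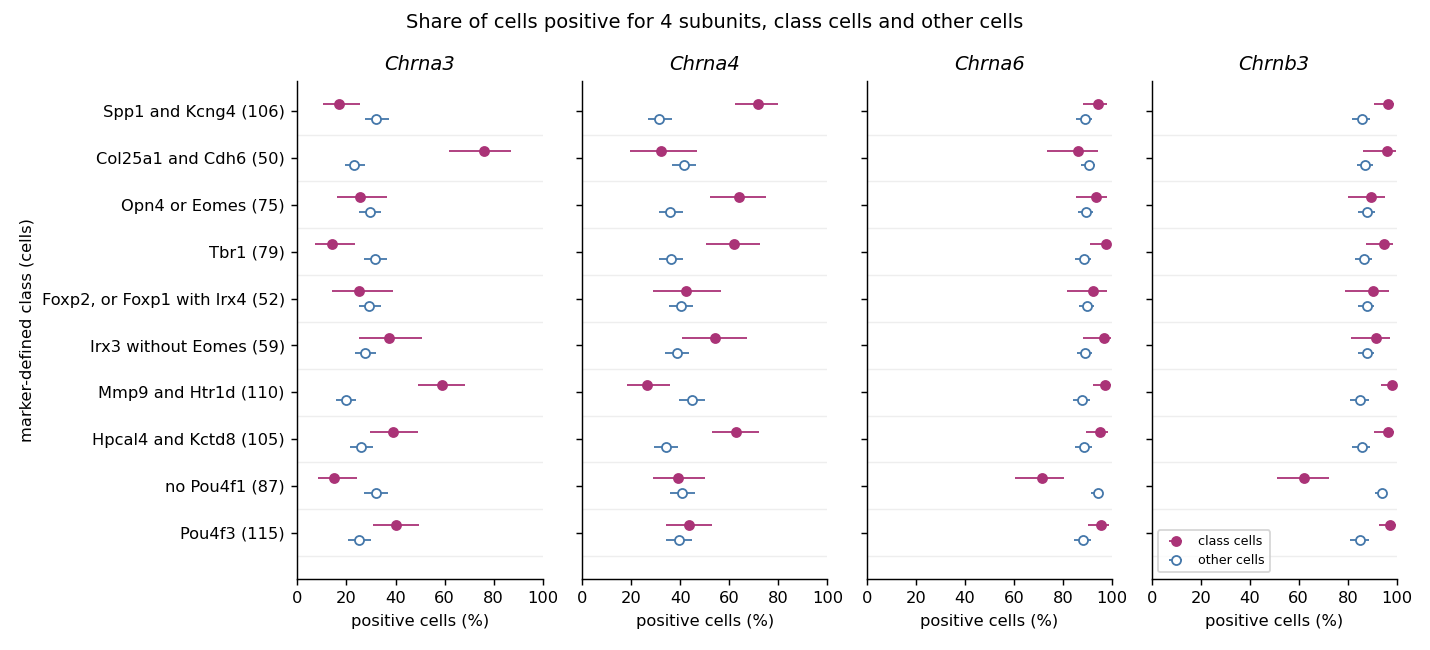
Share of cells positive for Chrna3, Chrna4, Chrna6 and Chrnb3 (horizontal axes, percent, with exact 95% intervals) in cells of each of 10 marker-defined classes (filled, with the number of cells) and in all other cells (open). Chrna3 stands at 76% and 59.1% in the Col25a1 and Cdh6 and the Mmp9 and Htr1d classes, and Chrna4 at 71.7% in the Spp1 and Kcng4 class. Chrna6 and Chrnb3 are at 71.3% and 62.1% in cells without Pou4f1 and at 86% or above in the other classes.

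Cells without Pou4f1, a POU-domain factor of most ganglion cells, had less of the core pair. Chrna6 was positive in 71.3% of the 87 cells (60.6% to 80.5%), against 94.3% (91.5% to 96.4%) of the others, and its median was 124.4 CPM in the class and 400.1 CPM in the others. Chrnb3 was positive in 62.1% of the class (51.03% to 72.3%) and 94.03% of the others (91.2% to 96.2%), with a median of 30.9 CPM in the class and 290.4 CPM in the others. The differences were -2.21 and -2.88, against a median of -0.77 over all genes, and 0.323% and 0.0179% of genes had a lower one. The class had a median of 4137 positive genes, against 5773 in the others. With only the cells of 3000 or more positive genes the differences were -1.95 and -2.35, and within run A they were -0.95 and -1.67. Chrna4 was positive in 39.1% of the class and 40.8% of the others. In all 4 members were lower (Chrna3, Chrna6, Chrnb2 and Chrnb3), where 33.5% of all genes were, and 0 were higher, where 0% were. For Chrnb2 the difference was -1.13, but -0.67 within run A and -0.01 among cells of 3000 or more positive genes, and for Chrna3 it was -1.15, but -0.82 among those with 3000 or more.

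The other classes showed smaller or less particular differences. In the 22.2% of cells positive for Hpcal4, a neuronal calcium sensor gene, and Kctd8, an auxiliary subunit of GABA-B receptors, Chrna4 was positive in 62.9%, against 34.1% of the others, a difference of 1.57. The Chrnb2 difference was 1.15, but 0.32 within run A and 0.48 among cells of 3000 or more positive genes, and that of Chrna6 was 0.68, but 1.03 without cells that carried 3 or more amacrine or bipolar markers. There 2 members were higher (Chrna4 and Chrnb2), where 34.9% of genes were, and 0 were lower, where 0.00897% were. The class had a median of 6535 positive genes, against 5137 in the others, and 48.6% of its cells had 3 or more amacrine markers, against 18.5% of the others. It held 26 of the 46 cells with both Chrna3 and Chrna4. The part of gene number and of amacrine RNA in this was not tested.

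In the 52 cells positive for Foxp2, or for Foxp1 with Irx4, 0 members were higher, where 6.09% of genes were, and 0 lower, where 0.305% were. In the 59 cells positive for Irx3 without Eomes the numbers were 0, where 11.9% of genes were higher, and 0, where 0.0179% were lower. In the Pou4f3-positive cells they were 0, where 15.4% were higher, and 0, where 0.0359% were lower. These counts changed under other settings. Within run A the Foxp class had differences of 1.33 for Chrna4 and 1.13 for Chrnb2. With class markers at 1 CPM the Chrna3 difference was 1.20 in the Irx3 class and 1.08 in the Pou4f3 class, where that of Chrnb3 was 1.02. Without cells that carried 3 or more amacrine or bipolar markers it was 1.39 for Chrnb2 in the Irx3 class and 1.06 for Chrna3 in the Pou4f3 class. Chrna3 was positive in 25%, 37.3% and 40% of these classes, against 29.3%, 27.6% and 25.2% of the other cells. Chrna4 was positive in 42.3%, 54.2% and 43.5% of these classes, against 40.2%, 38.5% and 39.5% of the other cells.

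Chrna7 met the size of 1 in none of the 10 classes. Its share ran from 8.05% in cells without Pou4f1 to 22% in the Col25a1 and Cdh6 class, and its largest difference was 0.70, in the Mmp9 and Htr1d class. Without cells that carried 3 or more amacrine or bipolar markers it was 1.16 in the Foxp class. Chrnb4, below the filter, was positive in 8.18% of the Mmp9 and Htr1d class and 4.42% of the others, with overlapping intervals (3.81% to 14.96% and 2.55% to 7.08%), and the class held 9 of its 25 positive cells. The ratio of Chrna6 to Chrnb3 per kb in cells positive for both had medians from 2.31 in the Col25a1 and Cdh6 class, against 3.32 in the others, to 4.32 in the Irx3 class, against 2.99 in the others. The quartile ranges of class and other cells overlapped in all 10 comparisons.

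Subunits of muscle and of the hair cell receptor were at or near 0. Chrna1, Chrnd, Chrne and Chrng, parts of the muscle receptor, and Chrna9, of the cochlear hair cell receptor, were positive in none of the cells, for which the limit of 3 cells is 0.636% and the exact 95% interval ends at 0.778%. Chrnb1, the muscle beta subunit, was positive in 8 cells (1.69%), and Chrna10, the partner of alpha9, in 2 (0.424%). None of these 7 genes reached 50% of the cells, a mark reached by 7.76% of all 55450 genes, so this count alone says little about them.

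Of 9 genes that fold or modify nicotinic receptors, 5 were found in most cells. Lynx1, a membrane-anchored protein that binds nicotinic receptors and dampens them, was positive in 92.2% of cells (89.4% to 94.4%), with a median of 270.6 CPM. Vsnl1, a calcium sensor that binds alpha4, was positive in 94.7%. Ric3, a chaperone of alpha7 assembly, was positive in 67.2% and Tmem35a, which encodes the chaperone NACHO, in 44.9%, although Chrna7 itself was positive in 13.98%. Of the Ly6-type modulators, Ly6e was positive in 56.4%, Lypd6 in 53.6%, Ly6h in 36.7%, Lypd6b in 30.9% and Lypd1 in 3.18%. In this list 5 of 9 genes reached 50% of the cells, a mark reached by 7.76% of all 55450 genes. The median gene of the list was positive in 53.6%, against 0% for the median of all genes. The list was chosen with earlier results of these data known.

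Of the genes that break down, make or load acetylcholine, only Ache was found in most cells. Ache, the gene of acetylcholinesterase, was positive in 82.2% of cells (78.4% to 85.5%), from 45.8% in run D to 100% in the highest run, and Bche, of butyrylcholinesterase, in 0.424%. Chat, the synthetic enzyme, was positive in 7.42%, Slc18a3, the vesicular transporter, in 4.66%, and Slc5a7, the choline transporter, in 3.60%. The last 3 are markers of starburst amacrine cells. At least 1 of 4 starburst markers was positive in 72 cells. Chrna6 was positive in 97.2% of these and 88.8% of the others, and Chrna3 in 25% of these and 29.5% of the others. Chrna4 was positive in 54.2% of cells with a starburst marker and 38% of the others, and the median cell had 6400.5 positive genes with such a marker and 5413.5 without.

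The genes most like each counted subunit over cells were found by Spearman's rho of log2(CPM + 1) among 11149 genes in the same 460 cells. These cells share sequencing runs and differ in depth and gene number, so the values are descriptions. Chrna3 was most like Pcdh8 (0.43), a delta protocadherin, Gabrg3 (0.41), a GABA-A receptor subunit, and Bnc2 (0.41), a zinc-finger factor, and the same 3 genes ranked first within run A. Chrna4 was most like Gprc5b (0.41), an orphan receptor gene, Coch (0.40), which encodes cochlin, and Ckb (0.39), the brain creatine kinase. Within run A 2 of these 3 stayed among the first 3.

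For Chrna6 the leading genes were Chrnb3 (0.41), Slc17a6 (0.41), the vesicular glutamate transporter, and Thy1 (0.39), a surface protein of ganglion cells. For Chrnb3 they were Rasgrf1 (0.43), a Ras exchange factor, Slc17a6 (0.42) and Chrna6 (0.41). Each of the core pair was therefore among the 3 genes most like the other, but within run A Chrnb3 ranked 59 for Chrna6 and Chrna6 ranked 91 for Chrnb3. For Chrnb2 the first 2 genes were Reep2 (0.40), a gene of endoplasmic reticulum shape, and Dner (0.36), a Notch-like receptor gene. Chrna7 reached at most 0.27, with Polrmt, the mitochondrial RNA polymerase, followed by Zxdc and Klhdc1 (0.24 each), and its rho with the number of positive genes per cell was also 0.27. For Chrna7 the list is therefore no stronger than the tie to gene number.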

How the data were processed

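RNA was measured in 472 single ganglion cells, with 234, 98, 62, 59 and 19 cells in runs A to E. For 55450 genes and 92 spike-in RNAs the deposited table gives an estimated count in each cell, and some values are fractions. A deposited key pairs library names with cells, and all cells were mapped. STAR 2.7.0 and the mm10 build are named in the submitters' processing notes. The tool that assigned counts to genes is not given in the sources used.

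Estimated counts were rounded to whole numbers and scaled to CPM over gene counts without spike-ins. Per the labels' protocols the libraries were read as 150 bp pairs, and because no molecular identifiers were used, reads of 1 molecule cannot be set apart from reads of several. GENCODE mouse release 21 on mm10 gave 1-based positions and lengths, and promoters are RefSeq's on GRCm38.p6. Shares carry exact 95% intervals, and a share of 0 the limit of 3 cells in 472.

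The named genes were the 9 members, the other nicotinic subunits, lists of modulators and of acetylcholine enzymes and transporters, the class markers, and the 3 genes most like each member positive in 10% or more of cells, of which 1 is not reported here. Members and lists were chosen with earlier results of these data known. Adar was named after its values were seen. Cells were taken up by pipette one at a time, and doublets were not called. The closest pair of cells correlated at 0.6655 in log2 values, so none looked like 1 library used again.

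Class differences used log2(CPM + 1) with a size rule of 1 and no test. The class differences and the likeness ranking were also run on simulated data in which each gene's values were shuffled over cells. Such data hold no differences of run or gene number between class and other cells. Alternatives were 1 and 100 CPM, thinning, gene number, denominators, TMMwsp library sizes, other-cell markers, runs left out, coding length, a pseudocount of 10 and Pearson's correlation. The tools were edgeR 4.0.16 in R 4.3.3, and pandas 2.3.3, matplotlib 3.10.9, scipy 1.17.1 and numpy 2.4.6 in Python 3.11.15.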

Additional observations from a re-analysis of the deposited data

How the results depend on the processing

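Shares moved with the threshold and with the number of genes a cell gave, and little with depth; a share counted as moved outside the interval of its main value. At 1 CPM the shares were 47.03% for Chrna4, 93.4% for Chrna6, 19.7% for Chrna7, 80.9% for Chrnb2 and 92.6% for Chrnb3, with 89.8% for Chrna6 and Chrnb3 together, 76.3% with Chrnb2 added and 93.9% for at least 1 alpha and 1 beta subunit. At 100 CPM they were 17.6% for Chrna3, 18.01% for Chrna4, 0% for Chrna5, 79.2% for Chrna6, 1.48% for Chrna7, 54.7% for Chrnb2, 75.6% for Chrnb3, 2.33% for Chrnb4, 67.8% for the pair, 43.4% for the 3 and 75.6% for alpha with beta. In cells with 3000 or more positive genes they were 46.1% for Chrna4, 95.2% for Chrna6, 83.96% for Chrnb2, 94.99% for Chrnb3, 91.5% for the pair, 77.2% for the 3 and 97.5% for alpha with beta. With TMMwsp library sizes alpha with beta was 93.2%. Without cells with 3 or more amacrine or bipolar markers Chrna2 was at 0.327%, Chrna4 at 35.6% and Chrna5 at 0%, and the number of cells with Chrna3 and Chrna4 was 0.583 times that expected within runs, against 0.807 over all cells. Without run A the shares were 35.7% for Chrna4, 84.5% for Chrna6, 68.5% for Chrnb2, 81.9% for Chrnb3, 76.1% for the pair, 59.2% for the 3 and 84.5% for alpha with beta, and the Chrna3 and Chrna4 ratio was 0.949. Without run D they were 92.98% for Chrna6, 91.8% for Chrnb3, 88.1% for the pair and 94.4% for alpha with beta, and without run E Chrna5 was at 0%. Chrnb2 was at 61.96% in cells where its estimate was whole, an alternative chosen after seeing the data that takes in every cell at 0. Thinning to 1000000 gene counts and leaving out run B or C moved none of the shares. Nor did a denominator without mitochondrial and ribosomal RNA genes, which kept the ribosomal protein genes. The cause was not tested in any of these. Of the 60 class differences, 12 were higher and 7 lower by 1 or more. In cells with 3000 or more positive genes 7 were higher, and lower ones remained there too. On log2(CPM + 10), where every difference shrinks by construction, 6 were higher and 2 lower by that size. Of the 19 differences of that size, 11 stayed past 1 in run A alone, 17 with class markers at 1 CPM, 18 without cells of 3 or more amacrine or bipolar markers, 12 in cells with 3000 or more positive genes and 8 on log2(CPM + 10), while 3, 4, 8, 1 and 0 others passed 1 there in the same order, and under these 5 alternatives none changed sign. No paired analysis was possible because the cells form 1 group. With 1 sample and no animals in the labels, the spread between mice is unknown, Chrna2 and Chrna5 rest on 7 and 1 cells, and Chrnb2 cannot be told apart from Adar over the bases they share.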
